A study of Mus musculus with 12 samples.

Results

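The BCL2 family genes were followed in natural killer (NK) cells of the bone marrow, innate lymphocytes that kill infected or transformed cells. Proteins of this family set the threshold of the mitochondrial route to cell death. Pro-survival members (Bcl2, Mcl1, Bcl2l1, which encodes BCL-XL, and the A1 genes Bcl2a1b and Bcl2a1d) hold the effectors Bax and Bak1 in check, and BH3-only members (Bcl2l11, which encodes BIM, Bbc3, which encodes PUMA, and Pmaip1, which encodes NOXA) bind and neutralise the pro-survival proteins. Much of their control lies in protein turnover, binding and location, so RNA is a partial view of the family. In NK cells, interleukin 15 is known to sustain survival through MCL1 and BCL2 and to restrain BIM. The 10 members were chosen by name and matched by mouse Ensembl gene ID, and 9 of them had a row among the 37991 genes of the table. Bcl2a1d was not analysed here.

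Bulk RNA was sequenced from cells sorted as NK1.1+CD49b+ from C57Bl/6 mice, with 3 libraries in each of 4 groups, 12 in all. Id2KO mice were Ncr1Cre Id2F/F, which targets Id2, an inhibitor of E protein transcription factors. Tcf1KO mice were Ncr1Cre Tcf7F/F, which targets the gene of TCF-1, a transcription factor of early NK and T cells. DKO mice carried Ncr1Cre with both floxed genes. Ctrl mice were Id2F/F or Id2F/F with Tcf7F/F and are named without Cre, so each comparison with Ctrl also holds the presence of Ncr1Cre. Ncr1Cre recombines in cells that express Ncr1 (NKp46), so deletion follows the onset of that gene, and cells without it keep the floxed alleles. Samples are labelled as independent, with no animal named for each, and p-values therefore measure the spread between these samples, which may be technical.

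Values are deposited FPKM, a read density per unit of gene length that is also scaled for sequencing depth. The library sizes implied by the steps between values lay between 13977524 and 20209587 reads. All 9 NK markers, among them Ncr1, Klrb1c, Itga2 and Eomes, were above 0 in every library. Their summed FPKM was 886 to 1378 in Id2KO, 1341 to 1655 in Tcf1KO, 1379 to 1942 in DKO and 1648 to 1786 in Ctrl, so all Id2KO libraries lay below Ctrl. The median log2 difference of these markers from Ctrl was -0.44 in Id2KO, with 5 of 9 at an unadjusted p under 0.05 in limma, and -0.48 in DKO, with 7 of 9, and limma called none of them after adjustment. Their part in the differences given below was not tested. Id2 stood at 17.1 to 19.2 FPKM in Id2KO, 102 to 126 in Tcf1KO, 36.8 to 48.8 in DKO and 124 to 169.98 in Ctrl, which separates the targeted from the other groups. Tcf7 stood at 80.9 to 92.1 FPKM in Id2KO, 29.6 to 38.0 in Tcf1KO, 53.9 to 73.3 in DKO and 37.7 to 46.5 in Ctrl. The totals of this gene overlap between Tcf1KO and Ctrl and lie above Ctrl in DKO, and a gene total does not show whether the floxed part was removed. Every direction given below for Tcf1KO and DKO therefore rests on libraries labelled as such. A set of 3 libraries had the lowest array weights in limma, namely Id2KO replicate 3, DKO replicate 3 and Ctrl replicate 2, and markers of neutrophils, erythroid cells and basophils varied widely between libraries. The summed FPKM of 12 neutrophil and myeloid markers was 160 to 1258 in Id2KO, 1440 to 4375 in Tcf1KO, 612 to 1094 in DKO and 994 to 3752 in Ctrl.

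Differences are on the log2 scale of FPKM plus 1, with the standard error (SE) and 95% interval from 1 limma fit over all 12 libraries. This scale understates changes of low genes. Adjusted p-values are Benjamini-Hochberg values over the 12384 genes that reached 1 FPKM in 3 libraries or more, and the threshold was 0.05. All 9 measured members passed that filter.

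Bcl2 and Mcl1 made up nearly all of the measured pro-survival FPKM, and 0 of 9 members passed the threshold in limma in any of 8 comparisons, in which 0.0% to 0.371% of all genes did. Bcl2 and Mcl1 together held 96.7% to 98.7% of the summed FPKM of the 4 measured pro-survival members, with a median of 97.5%. Bcl2 had the higher RNA level in the Id2KO and DKO groups on average, Bax had its 3 highest values in Id2KO, and Bcl2l11 its higher averages in Tcf1KO and DKO. None of these differences stood clear of the spread between libraries once all genes were considered.

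Levels can be compared between genes only per length, and the length behind the deposited values differs from the merged exon length of the annotation for several members. For Bcl2l11 the values imply 17013 bases, which is the summed exon length of all its annotated transcripts, whereas its merged exons span 8029 bases. In deposited FPKM the medians over 12 libraries were 86.2 for Mcl1, 69.9 for Bcl2, 11.1 for Bcl2l11, 10.7 for Bax, 10.6 for Bak1, 2.13 for Pmaip1, 2.13 for Bcl2a1b, 1.82 for Bbc3 and 1.73 for Bcl2l1. Rescaled to the merged exon length, the medians of Mcl1 and Bcl2 were 87.9 and 54.9 FPKM, and those genes remained first and second. Bak1 came next at 31.8 FPKM, above Bcl2l11 at 23.6 and Bax at 13.0, and Bcl2l1 moved to 5.26 FPKM, above Bbc3 at 2.72. At that length Bcl2 and Mcl1 held 92.9% to 96.8% of the pro-survival sum. The deposited medians of Bax and Bak1 differ by less than their spread over libraries, as do those of Pmaip1, Bcl2a1b, Bbc3 and Bcl2l1. Ratios of the FPKM of 1 gene between libraries do not depend on its length. Differences of log2(FPKM + 1) do for low genes, because the added 1 weighs more on a smaller FPKM. For Bcl2l1 the difference of Id2KO from Ctrl was -0.24 with 1 added and -0.35 with 0.1 added.

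**Figure D1:**
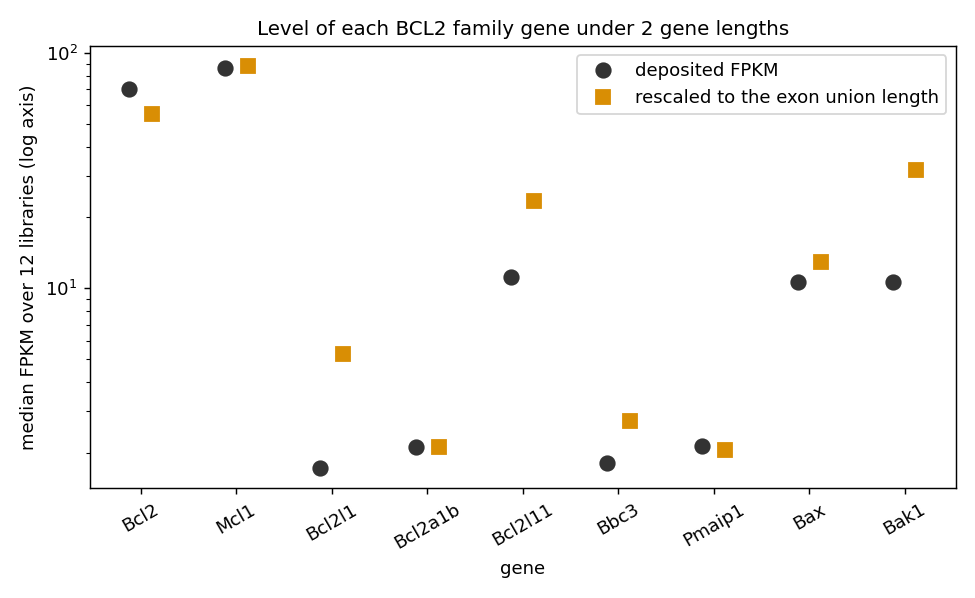
Median FPKM over 12 libraries (log axis) of the 9 measured BCL2 family genes, as deposited (circles) and rescaled to the merged exon length of the annotation (squares). Mcl1 and Bcl2 lead under both lengths, while Bak1 moves to 31.8 FPKM, against 10.6 as deposited, and Bcl2l1 to 5.26, against 1.73.

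Among the pro-survival members, Bcl2 (ENSMUSG00000057329, chromosome 1, 106538178 to 106714274, minus strand, GRCm38) encodes the founding member of the family. Its FPKM was 89.1, 112 and 59.2 in Id2KO, 53.4, 79.1 and 62.4 in Tcf1KO, 74.3, 84.8 and 101.2 in DKO, and 57.4, 58.3 and 65.4 in Ctrl. All 3 DKO libraries lay above all 3 Ctrl libraries, while Id2KO replicate 3 lay within the Ctrl range and the Tcf1KO values surrounded it. Group means were 86.9 ± 26.6 FPKM in Id2KO, 64.9 ± 13.0 in Tcf1KO, 86.8 ± 13.5 in DKO and 60.4 ± 4.4 in Ctrl (SD, n = 3 each). The log2 difference from Ctrl in limma was 0.47 ± 0.23 (SE) in Id2KO (95% interval -0.033 to 0.98, adjusted p = 0.549). It was 0.51 ± 0.23 (SE) in DKO (95% interval 0.0019 to 1.01, unadjusted p = 0.0493, adjusted p = 0.529 in limma). In Tcf1KO it was 0.087 ± 0.23 (SE), with a 95% interval of -0.42 to 0.59. With a score of neutrophil, erythroid and basophil markers as a term in the fit, the differences were 0.10 in Id2KO and 0.37 in DKO. The score itself was -1.52, -1.19 and 0.014 in Id2KO and 0.49, 0.91 and -0.17 in Ctrl. Score and group therefore cannot be fully told apart in that fit. Without the 3 libraries of lowest weight the Id2KO difference was 0.70. Reads from the antisense gene D630008O14Rik, which overlaps Bcl2 and had a median of 3.03 FPKM, cannot be told apart from those of Bcl2 without a stated strand setting. In bulk RNA, fewer cells of a type and less RNA per cell cannot be told apart, which holds for every difference reported here.

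T cells, NKT cells and B cells also express Bcl2, and their markers differed between the groups. The summed FPKM of 11 T and NKT markers was 1294 to 1751 in Id2KO, 1416 to 1901 in Tcf1KO, 1851 to 2261 in DKO and 978 to 1158 in Ctrl, and all 11 passed the filter. NK cells express several of these genes themselves, and none of the 11 was at 0 in any library. Within Id2KO, replicates 1, 2 and 3 had 1294, 1751 and 1698 FPKM of these markers beside 89.1, 112 and 59.2 FPKM of Bcl2. The summed FPKM of 7 B cell markers was 352 to 414 in Id2KO, 152 to 207 in Tcf1KO, 252 to 282 in DKO and 165 to 249 in Ctrl. All Id2KO and DKO libraries lay above Ctrl in that sum, the groups in which the Bcl2 mean was also higher. Ighm, with 149 to 411 FPKM, made up most of it, while Ms4a1 reached 0.975 FPKM at most and was at 0 in 3 libraries. The part of these T, NKT and B cell markers in the Bcl2 level was not tested.

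**Figure D2:**
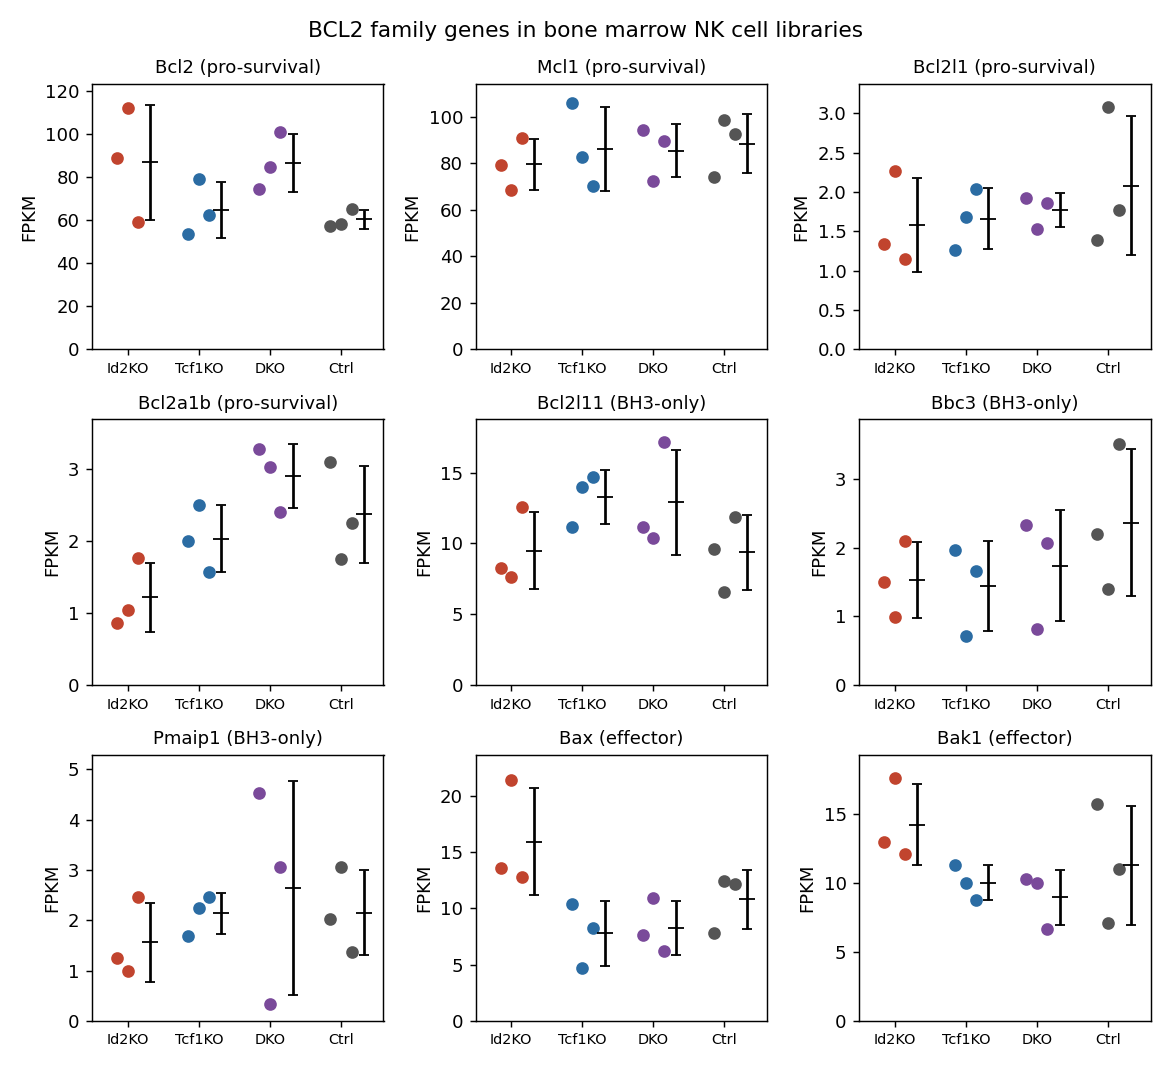
FPKM of each measured BCL2 family gene in the 3 libraries of Id2KO, Tcf1KO, DKO and Ctrl (points, replicates 1 to 3 from left to right), with the group mean and SD beside them (bar). The vertical axis of each panel starts at 0, and Bcl2 in DKO and Bax in Id2KO are the panels in which all 3 points of a group lie above the 3 of Ctrl.

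Mcl1 (ENSMUSG00000038612, chromosome 3, 95658788 to 95663176, plus strand) encodes a short-lived pro-survival protein on which NK cells are known to depend. Its FPKM was 79.2, 68.5 and 90.6 in Id2KO, 106, 82.8 and 70.2 in Tcf1KO, 94.2, 72.4 and 89.6 in DKO, and 74.1, 98.4 and 92.4 in Ctrl. The groups overlapped throughout, and the highest library held 1.55 times the FPKM of the lowest, the smallest ratio among the 9 members. The log2 differences from Ctrl were -0.15 ± 0.19 (SE) in Id2KO, -0.043 ± 0.19 in Tcf1KO and -0.046 ± 0.19 in DKO. The 95% intervals reached from -0.56 to 0.26 in Id2KO, -0.46 to 0.37 in Tcf1KO and -0.46 to 0.37 in DKO. The sign turned to 0.11 in Id2KO and to 0.048 in DKO with the score of other lineages as a term.

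Bcl2l1 (ENSMUSG00000007659, chromosome 2, 152780668 to 152831728, minus strand) was low in all groups. Its protein, BCL-XL, is abundant in late erythroid precursors. The FPKM was 1.33, 2.26 and 1.15 in Id2KO, 1.27, 1.69 and 2.03 in Tcf1KO, 1.93, 1.52 and 1.86 in DKO, and 1.39, 3.08 and 1.77 in Ctrl. The groups overlapped, and the highest value was that of Ctrl replicate 2. The log2 differences from Ctrl were -0.24 ± 0.25 (SE) in Id2KO, -0.18 ± 0.25 in Tcf1KO and -0.12 ± 0.25 in DKO. Without the 3 libraries of lowest weight, among them Ctrl replicate 2, they were 0.10, 0.039 and 0.079, the opposite sign in each group. Summed FPKM of 10 erythroid markers reached 169 to 1928 in Id2KO, 1351 to 3542 in Tcf1KO, 452 to 2737 in DKO and 769 to 4814 in Ctrl, and their part in the Bcl2l1 level was not tested.

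Bcl2a1b (ENSMUSG00000089929, chromosome 9, 89199209 to 89207827, plus strand) is 1 of several near-identical copies that encode A1, a pro-survival protein best known from activated lymphocytes, neutrophils and mast cells. The start of the coding sequence is shown for 3 copies because no other stretch of 76 coding bases holds more of the positions at which they differ. The stretch is the first 76 coding bases, the length of 1 sequencing read, from the GENCODE M21 transcripts on GRCm38, with the positions at which the 3 copies differ in capitals.
Bcl2a1b: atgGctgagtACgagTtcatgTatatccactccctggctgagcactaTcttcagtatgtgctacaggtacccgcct
Bcl2a1a: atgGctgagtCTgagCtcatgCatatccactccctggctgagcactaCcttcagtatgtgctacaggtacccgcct
Bcl2a1d: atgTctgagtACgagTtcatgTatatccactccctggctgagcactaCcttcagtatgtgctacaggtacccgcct
Of the 516 coding bases, 12 differ among the copies, and 6 of those lie in this stretch. Bcl2a1b is identical to Bcl2a1d at 98.8% and to Bcl2a1a at 97.9% of coding bases, and 43.0% of the 742 windows of 76 bases in its transcript occur unchanged in another copy. How reads that match several copies were counted is not given in the sources used here, so the Bcl2a1b value is uncertain as the level of 1 gene.

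The A1 row held few reads, between 10 and 41 per library by the steps between values. Its FPKM was 0.861, 1.04 and 1.76 in Id2KO, 2.002, 2.50 and 1.57 in Tcf1KO, 3.27, 3.02 and 2.40 in DKO, and 3.10, 1.75 and 2.25 in Ctrl. The Id2KO libraries were the lowest as a group, with only replicate 3 reaching the Ctrl range, and all 3 DKO libraries lay above all 3 Id2KO libraries. The log2 difference of Id2KO from Ctrl in limma was -0.60 ± 0.23 (SE), with a 95% interval of -1.10 to -0.10 (unadjusted p = 0.0225, adjusted p = 0.402). The differences of Tcf1KO and DKO from Ctrl were -0.15 ± 0.23 and 0.22 ± 0.23 (SE). DKO exceeded Id2KO by 0.83 ± 0.23 (SE) in limma, the smallest p of any member in any comparison (unadjusted p = 0.0039, adjusted p = 0.207). The interaction, the effect of targeting Id2 with Tcf7 targeted minus that effect with Tcf7 intact, was 0.97 ± 0.32 (SE) in limma (unadjusted p = 0.0115, adjusted p = 0.831).

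Markers of neutrophils and of basophils followed the order of this row within Id2KO, while the neutrophil and myeloid markers did not within the other groups. The Id2KO libraries had 160, 335 and 1258 FPKM of the 12 neutrophil and myeloid markers and 15.7, 23.2 and 95.3 FPKM of the 9 basophil and mast cell markers, and their Bcl2a1b values followed the same order. Ctrl libraries had 2208, 3752 and 994 FPKM of the neutrophil and myeloid markers and 632, 405 and 167 FPKM of the basophil and mast cell markers. Tcf1KO libraries had 4375, 2191 and 1440 FPKM of the neutrophil and myeloid markers, with Bcl2a1b at 2.002, 2.50 and 1.57. DKO libraries had 1094, 612 and 891 FPKM of them, with Bcl2a1b at 3.27, 3.02 and 2.40. The basophil and mast cell markers followed the order of Bcl2a1b in DKO too, but not in Tcf1KO or Ctrl. Elane was at 0 in 4 of the 12 libraries and Cd14 in 1. With the marker score as a term the Id2KO difference in Bcl2a1b was -0.32, and the DKO minus Id2KO difference was 0.65. Whether cells with these markers account for the Bcl2a1b level was not tested.

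**Figure D3:**
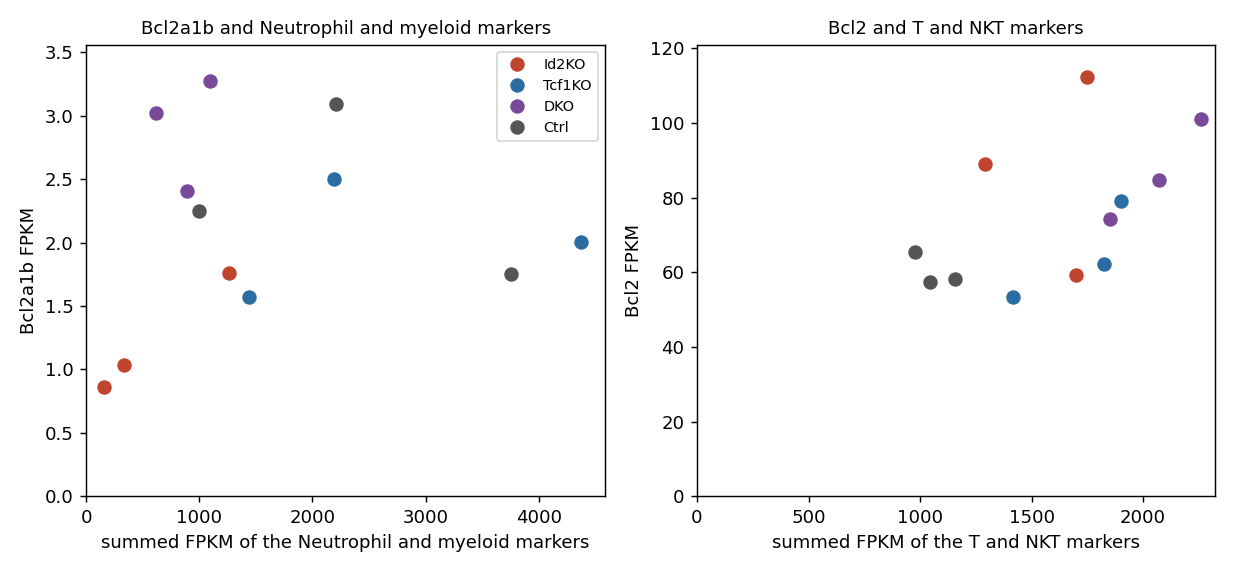
Left, Bcl2a1b FPKM against the summed FPKM of 12 neutrophil and myeloid markers. Right, Bcl2 FPKM against the summed FPKM of 11 T and NKT markers. Each point is 1 of 12 libraries, coloured by group, and the 2 Id2KO libraries with the fewest myeloid marker transcripts, 160 and 335 FPKM, have the lowest Bcl2a1b values, 0.861 and 1.04.

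Among the BH3-only members, Bcl2l11 (ENSMUSG00000027381, chromosome 2, 128126038 to 128162547, plus strand) had the highest FPKM, also at its merged exon length. Its FPKM was 8.25, 7.63 and 12.6 in Id2KO, 11.1, 14.0 and 14.7 in Tcf1KO, 11.1, 10.4 and 17.2 in DKO, and 9.61, 6.60 and 11.9 in Ctrl. The higher values were in the groups with Tcf7 targeted, but each group overlapped Ctrl. The log2 differences from Ctrl were 0.021 ± 0.26 (SE) in Id2KO, 0.49 ± 0.26 in Tcf1KO and 0.43 ± 0.26 in DKO. Over the 6 libraries with Tcf7 targeted against the 6 without, the difference in limma was 0.45 ± 0.18 (SE), with a 95% interval of 0.041 to 0.85 (unadjusted p = 0.0336, adjusted p = 0.456). Without the 3 libraries of lowest weight the Tcf1KO difference was 0.28, the DKO difference 0.0098 and the Id2KO difference -0.39.

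Bbc3 (ENSMUSG00000002083, chromosome 7, 16308393 to 16318205, plus strand), a target of p53 and FOXO factors, was low. Its FPKM was 1.504, 0.997 and 2.096 in Id2KO, 1.97, 0.711 and 1.66 in Tcf1KO, 2.33, 0.817 and 2.07 in DKO, and 2.19, 1.39 and 3.51 in Ctrl. Replicate 2 was the lowest of its group in all 4 groups, and the groups overlapped. The log2 differences from Ctrl were -0.38 ± 0.33 (SE) in Id2KO, -0.45 ± 0.33 in Tcf1KO and -0.30 ± 0.33 in DKO, with 95% intervals that all hold 0.

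Pmaip1 (ENSMUSG00000024521, chromosome 18, 66458533 to 66465565, plus strand) encodes NOXA, a selective antagonist of MCL1. Its FPKM was 1.25, 0.986 and 2.45 in Id2KO, 1.69, 2.24 and 2.47 in Tcf1KO, 4.52, 0.335 and 3.05 in DKO, and 2.03, 3.06 and 1.37 in Ctrl. DKO held both the highest and the lowest library of the series, 179 and 14 reads, and the 13.5-fold ratio between them was the widest of any member. The log2 differences from Ctrl were -0.30 ± 0.46 (SE) in Id2KO, 0.019 ± 0.46 in Tcf1KO and 0.012 ± 0.46 in DKO. The interval in DKO reached from -0.99 to 1.02, so a change of nearly 1 log2 unit in either direction lies within it. The DKO difference turned to -0.21 with a pseudocount of 0.1.

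The effectors Bax and Bak1 open the outer mitochondrial membrane when activated. Bax (ENSMUSG00000003873, chromosome 7, 45461697 to 45466898, minus strand) stood at 13.6, 21.5 and 12.8 FPKM in Id2KO, 10.4, 4.71 and 8.26 in Tcf1KO, 7.63, 10.96 and 6.25 in DKO, and 7.82, 12.5 and 12.1 in Ctrl. The 3 Id2KO values were the 3 highest of the series, while Tcf1KO and DKO overlapped Ctrl. The log2 difference from Ctrl in limma was 0.51 ± 0.31 (SE) in Id2KO (95% interval -0.16 to 1.19, adjusted p = 0.648). It was -0.46 ± 0.31 (SE) in Tcf1KO and -0.35 ± 0.31 in DKO. It was 0.29 in Id2KO without Id2KO replicate 2, -0.18 in Tcf1KO without Tcf1KO replicate 2, and -0.084 in DKO without the 3 libraries of lowest weight. DKO against Id2KO gave -0.87 ± 0.31 (SE) in limma, with a 95% interval of -1.54 to -0.19 (unadjusted p = 0.0168, adjusted p = 0.328), and the 2 groups did not overlap. The 6 libraries with Tcf7 targeted against the 6 without gave -0.66 ± 0.22 (SE) in limma (95% interval -1.14 to -0.18, unadjusted p = 0.0111, adjusted p = 0.312).

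Bak1 (ENSMUSG00000057789, chromosome 17, 27019810 to 27029009, minus strand) stood at 13.0, 17.6 and 12.1 FPKM in Id2KO, 11.3, 10.001 and 8.78 in Tcf1KO, 10.3, 9.97 and 6.67 in DKO, and 15.7, 7.12 and 10.997 in Ctrl. Ctrl spanned nearly the whole range, and all 3 groups overlapped it. The log2 differences from Ctrl were 0.35 ± 0.27 (SE) in Id2KO, -0.10 ± 0.27 in Tcf1KO and -0.26 ± 0.27 in DKO. Without Ctrl replicate 1 they were 0.61 in Id2KO, 0.15 in Tcf1KO and -0.0072 in DKO, and without Ctrl replicate 2 they were 0.087, -0.37 and -0.53 in the same order. DKO lay below Id2KO in all libraries, by -0.62 ± 0.27 (SE) on the log2 scale in limma (95% interval -1.20 to -0.032, unadjusted p = 0.0406, adjusted p = 0.428). Bak1 overlaps Ggnbp1 on the opposite strand, which had a median of 0.267 FPKM.

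Promoter stretches of Bcl2l11, Bbc3 and Bax are shown because they hold letters of the FOXO motif or of the E-box. FOXO factors are known to activate BH3-only genes, and E proteins, which Id2 restrains, bind some E-boxes. Sequences are RefSeq stretches on GRCm38.p6, written 5′ to 3′ on the strand of the gene, with motif matches in capitals. GTAAACA is the FOXO motif and CANNTG the general E-box, a class wider than the sites of E proteins. Both were searched on both strands over windows from 250 bases before to 50 bases after each annotated start.
Bcl2l11, chr2:128125788-128125847, plus strand: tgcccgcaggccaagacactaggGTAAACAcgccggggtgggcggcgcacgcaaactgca
Bbc3, chr7:16310026-16310105, plus strand: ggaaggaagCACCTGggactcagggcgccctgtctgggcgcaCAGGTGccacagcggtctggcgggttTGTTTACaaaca
Bax, chr7:45466899-45466958, minus strand: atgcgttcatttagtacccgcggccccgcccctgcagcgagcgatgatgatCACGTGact
In Bbc3 the FOXO motif lies on the opposite strand, as TGTTTAC. That stretch precedes an annotated start inside the gene, whose first base is 16308393. The search covered 14 windows for 9 of the members, Bcl2a1d among them, while Pmaip1 was not searched. GTAAACA occurred in 2 of these 14 windows, those of Bcl2l11 and Bbc3, and in 3.65% of all 32851 windows. The E-box occurred in 9 of the 14, against 72.3% of all windows. The TCF motif CTTTGAT, found in 3.73% of all windows, and the STAT motif TTCNNNGAA, found in 8.30%, were in none of the 14. A match or its absence describes these letters only, and which factor binds them, as at CACGTG in Bax, was not tested. Further E-box matches, among them those in windows of Mcl1, Bcl2l1 and Bcl2a1d, are not shown.

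**Figure D4:**
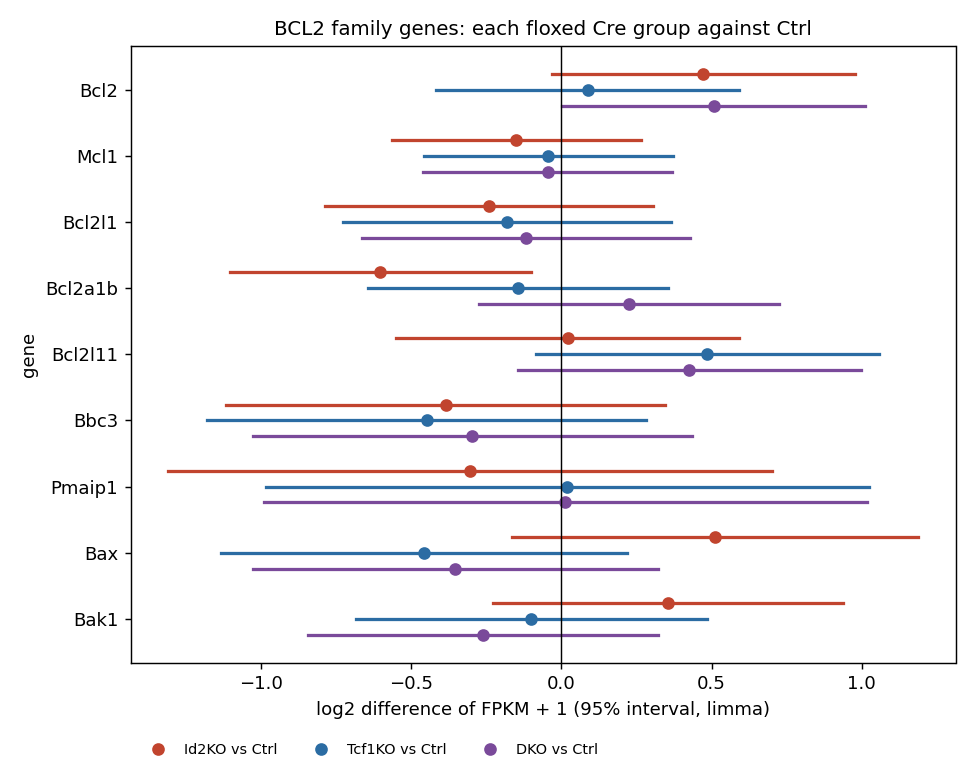
Log2 difference of FPKM plus 1 from Ctrl for each measured BCL2 family gene in Id2KO, Tcf1KO and DKO (points), with limma's 95% intervals (lines). Of the 27 intervals, those of Bcl2a1b in Id2KO and Bcl2 in DKO exclude 0, and no adjusted p is below 0.05.

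Across the comparisons, the family was counted against all genes tested. In Id2KO against Ctrl, 0 of 9 members passed the threshold in limma, and 0.178% of all genes did. At an unadjusted p under 0.05 there was 1 member, Bcl2a1b, beside 9.71% of all genes. Only Bax did not overlap between those groups, being higher in Id2KO, as were 7.11% of all genes. The median log2 difference of the members was -0.15, and that of all genes -0.0079. In Tcf1KO against Ctrl, limma called 0 members and 0.0% of all genes, while 4.8% of all genes and 0 members had an unadjusted p under 0.05. limma's voom on recovered reads called 4 genes there and no member. In DKO against Ctrl, limma called 0 members and 0.145% of all genes. Bcl2 had an unadjusted p under 0.05, beside 9.44% of all genes, and was the 1 member whose DKO libraries all lay above Ctrl, as did those of 6.28% of genes. These 3 comparisons share the Ctrl libraries.

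In DKO against Id2KO, libraries with both genes targeted were set against those with Id2 targeted alone. Id2 itself averaged 42.3 ± 6.08 FPKM in DKO and 18.03 ± 1.04 in Id2KO (SD, n = 3 each), so these groups also differ in the Id2 RNA that remains. There limma called 0 members and 0.121% of all genes. Bcl2a1b, Bax and Bak1 had an unadjusted p under 0.05, 3 of 9 members beside 10.9% of all genes. The same 3 members did not overlap between the groups, Bcl2a1b higher in DKO, beside 6.34% of all genes, and Bax and Bak1 lower, beside 8.32%. In DKO against Tcf1KO, limma called 0 members and 0.0565% of all genes, and 0 members had an unadjusted p under 0.05, beside 6.73% of genes. For the interaction limma called 0 members and 0.0% of all genes, while 1 member and 5.94% of genes had an unadjusted p under 0.05, and voom called none. Over the 6 libraries with Id2 targeted against the 6 without, limma called 0 members and 0.299% of all genes, and 1 member, beside 10.9% of genes, had an unadjusted p under 0.05. That member was Bcl2, with a log2 difference of 0.45 ± 0.16 (SE) in limma (95% interval 0.089 to 0.80, unadjusted p = 0.0189, adjusted p = 0.340). With the marker score as a term that difference was 0.17. Over the 6 libraries with Tcf7 targeted against the 6 without, limma called 0 members and 0.371% of all genes, and Bax and Bcl2l11 had an unadjusted p under 0.05, beside 9.74% of genes. In voom 0 members were called in any of the 8 comparisons.

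**Figure D5:**
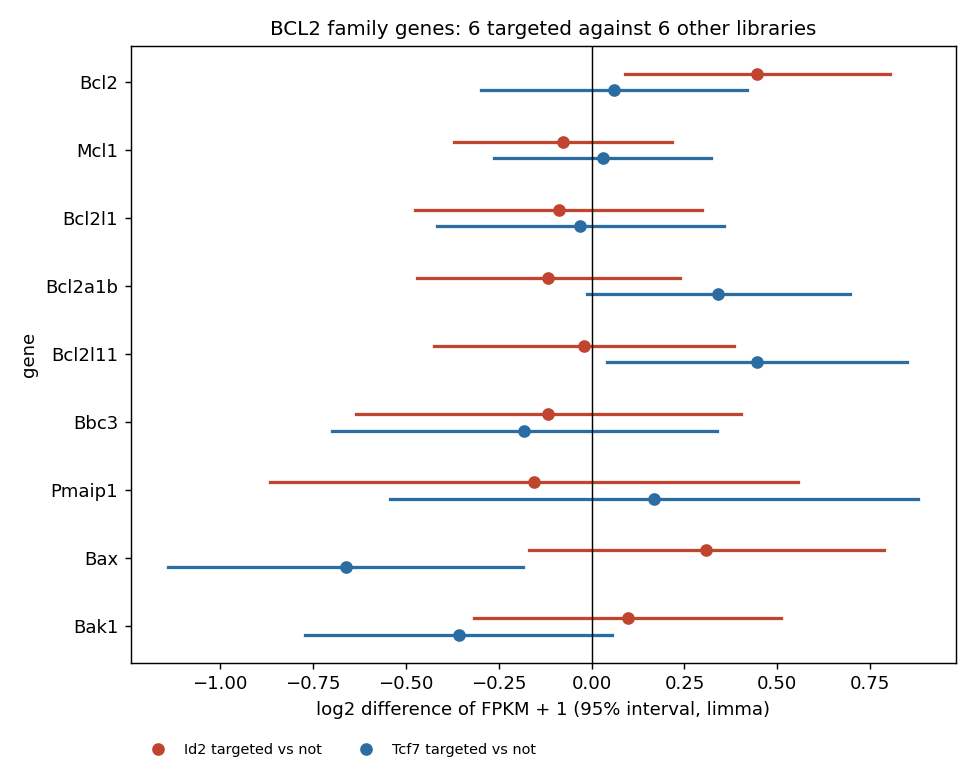
Log2 difference of FPKM plus 1 for each measured BCL2 family gene between the 6 libraries with Id2 targeted and the 6 without (red), and between the 6 with Tcf7 targeted and the 6 without (blue), with limma's 95% intervals. Bcl2 lies at 0.45 for Id2, and Bcl2l11 and Bax at 0.45 and -0.66 for Tcf7, and no adjusted p is below 0.05.

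The balance between members was described by ratios within each library, which do not depend on library size. The size of each ratio depends on the gene lengths behind the deposited FPKM, but its order between libraries does not. The sums of several genes given below also rest on those lengths. The ratio of Bcl2l11 to Bcl2 FPKM was 0.0926, 0.0679 and 0.212 in Id2KO, 0.209, 0.177 and 0.236 in Tcf1KO, 0.150, 0.123 and 0.170 in DKO, and 0.167, 0.113 and 0.182 in Ctrl. The Id2KO libraries held both the lowest value and 1 of the highest, and every group overlapped Ctrl. The ratio of Bax to Bcl2 was 0.153, 0.191 and 0.216 in Id2KO, 0.195, 0.0596 and 0.132 in Tcf1KO, 0.103, 0.129 and 0.0618 in DKO, and 0.136, 0.214 and 0.186 in Ctrl. All 3 DKO values of this ratio lay below those of Id2KO and of Ctrl, which is a description with no test. The summed FPKM of the pro-survival members was 169 ± 15.7 in Id2KO, 155 ± 16.3 in Tcf1KO, 177 ± 16.8 in DKO and 153 ± 14.9 in Ctrl (SD, n = 3 each). The sum of Bax and Bak1 was 30.2 ± 7.75 FPKM in Id2KO, 17.8 ± 3.55 in Tcf1KO, 17.2 ± 4.05 in DKO and 22.1 ± 2.18 in Ctrl (SD, n = 3 each).

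Over the 12 libraries the members varied largely apart from one another, as a description of libraries that share depth, group and marker differences. The Pearson correlation of log2 levels was 0.49 between Bax and Bak1, -0.46 between Bcl2 and Mcl1, -0.69 between Bcl2l11 and Bax and -0.65 between Bcl2a1b and Bax. The closest genes below are the highest of many correlations, with no test. Genes with Gm or Rik names or without a symbol were left out. Among the others tested, the genes whose levels followed Bcl2 most closely were Heatr1 (r = 0.98), Ablim1 (r = 0.95) and Mdn1 (r = 0.89). Those closest to Mcl1 were Pi4k2b (r = 0.87), Tpcn1 (r = 0.84) and Arhgap12 (r = 0.82), and those closest to Bcl2l11 were Sesn3 (r = 0.93), Pcf11 (r = 0.91) and Ncoa3 (r = 0.91).

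Of 14 further family genes, 13 had a row and 4 passed the filter, and limma called none of the 4 in any comparison. Bid, the BH3-only protein cleaved by caspase 8, averaged 5.54 ± 2.27 FPKM in Id2KO, 4.34 ± 0.820 in Tcf1KO, 4.71 ± 1.18 in DKO and 4.71 ± 0.557 in Ctrl (SD, n = 3 each). Bcl2l13 averaged 4.08 ± 1.60 FPKM in Id2KO, 6.83 ± 2.15 in Tcf1KO, 4.96 ± 1.11 in DKO and 5.45 ± 1.08 in Ctrl (SD, n = 3 each). Bad and Bcl2l12 also passed, while Bcl2l10, Bcl2a1c and Hrk were listed at 0 in all 12 libraries and Bok in 10. None of the 4 had an unadjusted p under 0.05 against Ctrl in limma.

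All 20 genes of a list of apoptosis machinery, which also holds death receptor genes such as Fas, were tested. In limma none of the 20 was called in any comparison. In DKO against Ctrl 3 of them had an unadjusted p under 0.05, as did 9.44% of all genes, and the median log2 difference was -0.16, beside -0.0090 over all genes. Birc5, which encodes survivin and is highest in dividing cells, averaged 5.33 ± 1.32 FPKM in DKO and 10.2 ± 2.67 in Ctrl (log2 difference -0.81 ± 0.32 (SE), adjusted p = 0.470 in limma). Endog, a mitochondrial nuclease gene, averaged 0.709 ± 0.642 FPKM in DKO and 1.52 ± 0.222 in Ctrl, and the death receptor gene Fas 2.03 ± 0.617 in DKO and 1.09 ± 0.470 in Ctrl. In Id2KO against Ctrl 0 of the 20 had an unadjusted p under 0.05, beside 9.71% of all genes, and Vdac2, a mitochondrial channel that binds BAK, averaged 10.9 ± 1.93 FPKM in Id2KO and 8.0 ± 0.523 in Ctrl.

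All 23 genes of the list upstream of the family, which covers the interleukin 15 receptor and STAT5 arm, FOXO factors, p53 and other regulators, were tested, and limma called none of the 23 in any comparison. In Id2KO against Ctrl 5 of the 23 had an unadjusted p under 0.05, as did 9.71% of all genes, and the median log2 difference was 0.077, beside -0.0079 over all genes. Socs2, a feedback inhibitor induced by STAT5, averaged 3.24 ± 1.49 FPKM in Id2KO and 0.966 ± 0.524 in Ctrl (log2 difference 1.09 ± 0.28 (SE), unadjusted p = 0.0024, adjusted p = 0.216 in limma). Trp53, which encodes p53, an activator of Bbc3, Pmaip1 and Bax, averaged 18.6 ± 1.796 FPKM in Id2KO and 13.1 ± 0.585 in Ctrl (log2 difference 0.47 ± 0.13 (SE), adjusted p = 0.261 in limma). Foxo1, known to activate Bcl2l11 and Bbc3, averaged 42.6 ± 5.41 FPKM in Id2KO and 27.3 ± 4.88 in Ctrl (log2 difference 0.63 ± 0.18 (SE), adjusted p = 0.267 in limma). Foxo3 averaged 5.86 ± 1.74 FPKM in Id2KO and 9.97 ± 2.92 in Ctrl (log2 difference -0.67 ± 0.23 (SE), adjusted p = 0.359 in limma). In DKO against Ctrl 1 of the 23 had an unadjusted p under 0.05, beside 9.44% of all genes, namely Ezh2, a histone methyltransferase gene, with 2.31 ± 0.842 FPKM in DKO and 4.32 ± 1.36 in Ctrl. Cish, another STAT5-induced feedback inhibitor, averaged 2.67 ± 1.20 FPKM in DKO and 1.37 ± 0.283 in Ctrl, but 0.583 ± 0.255 in Id2KO. Socs2 averaged 0.924 ± 0.0576 FPKM in DKO, beside 0.966 in Ctrl, so Socs2 and Cish did not move alike in Id2KO or in DKO.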

How the data were processed

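Bulk RNA of sorted NK cells was measured in 12 libraries. The authors deposited FPKM per gene. Tools named in the submitters' processing notes are TopHat2 2.1.0, HTSeq 0.6.1, Trimmomatic 0.33 and edgeR, with the mm10 build. The annotation, strand setting and handling of shared reads are not given in the sources used here. Symbols, positions and exon lengths came from GENCODE M21 (GRCm38). Whole reads were recovered for 100.0% of the 23707 genes above 0, within 0.001 reads (0.05 for 2 genes).

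log2(FPKM + 1) of genes with FPKM 1 or more in 3 libraries was fitted in limma 3.58.1 (R 4.3.3) with a variance trend. The fit held 12384 genes and 12 libraries with group as its term, with two-sided tests, Benjamini-Hochberg adjustment and a threshold of 0.05. It was checked on simulated data. With groups of 3 an exact permutation test cannot reach 0.05.

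The members, lists, tests and alternatives were chosen with earlier results of these data known. Named genes are the members and, per list, up to 4 genes of smallest p in Id2KO or DKO against Ctrl. Some genes of the lists are not reported here. Alternatives were a pseudocount of 0.1, no filter, median scaling, only the compared groups, a replicate block, a marker score as a term, limma's voom on recovered reads, leaving out each library, and leaving out the 3 of lowest array weight. The score is the mean scaled level of the neutrophil and myeloid, erythroid, and basophil and mast cell markers. It differed between Id2KO and Ctrl, so as a term it may also take up part of a group difference. Figures were drawn with matplotlib 3.10.9 and tables made with pandas 2.3.3.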

Additional observations from a re-analysis of the deposited data

How the results depend on the processing

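No BCL2 family member was called in any of the 8 comparisons under any alternative, and the lowest adjusted p of a member over them was 0.13 in limma. Of 676 recomputed member differences given in the text, 647 kept their sign and 29 did not, and over all 72 member differences 102 of 1413 changed sign. With the marker score as a term, the signs turned for Mcl1 (0.11), Bcl2l11 (-0.12) and Pmaip1 (0.21) in Id2KO, Pmaip1 in Tcf1KO (-0.040) and Mcl1 in DKO (0.048). Without the 3 libraries of lowest weight they turned for Bcl2l1 (0.10) and Bcl2l11 (-0.39) in Id2KO, Mcl1 (0.039) and Bcl2l1 (0.039) in Tcf1KO and Bcl2l1 in DKO (0.079). Pmaip1 in DKO turned to -0.21 with a pseudocount of 0.1 and to -0.30 in voom. Leaving out 1 library each, ranges that hold 0 were -0.19 to 0.19 for Bcl2l11 in Id2KO, and in Tcf1KO -0.062 to 0.22 for Bcl2, -0.20 to 0.093 for Mcl1, -0.35 to 0.039 for Bcl2l1, -0.28 to 0.0060 for Bcl2a1b, -0.17 to 0.22 for Pmaip1 and -0.37 to 0.15 for Bak1. In DKO they were -0.17 to 0.067 for Mcl1, -0.28 to 0.10 for Bcl2l1 and -0.40 to 0.62 for Pmaip1. Other ranges with a move of over 1.5 times were, in Id2KO, 0.27 to 0.72 for Bcl2, -0.27 to -0.049 for Mcl1, -0.42 to -0.018 for Bcl2l1, -0.61 to -0.15 for Bbc3, -0.54 to -0.11 for Pmaip1, 0.29 to 0.64 for Bax and 0.087 to 0.61 for Bak1. In Tcf1KO they were 0.28 to 0.66 for Bcl2l11, -0.67 to -0.21 for Bbc3 and -0.67 to -0.18 for Bax. In DKO they were 0.089 to 0.38 for Bcl2a1b, 0.22 to 0.60 for Bcl2l11, -0.52 to -0.024 for Bbc3, -0.55 to -0.19 for Bax and -0.53 to -0.0072 for Bak1.

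Counts over all genes moved more. In Id2KO against Ctrl, 22 genes were called, 2 with only the compared groups, 10 with the marker score and 8 without the 3 libraries; leaving out 1 library gave 11 to 27, with 11 without Id2KO replicate 1 and 13 without Id2KO replicate 2. In Tcf1KO against Ctrl, 0 genes were called, 1 without a filter, 1 with only the compared groups, 4 in voom and 4 without the 3 libraries, and leaving out 1 library gave 0 to 3. In DKO against Ctrl, 18 were called, 4 without a filter, 1 with only the compared groups and 0 without the 3 libraries, and 1 to 27 leaving out 1 library, with 1 without DKO replicate 3, Ctrl replicate 1 or Ctrl replicate 2. In DKO against Id2KO, 15 were called, 0 with only the compared groups, 5 with the marker score, and 1 to 27 leaving out 1 library, with 1 without Id2KO replicate 2 and 27 without Id2KO replicate 3. In DKO against Tcf1KO, 7 were called, 4 with a pseudocount of 0.1, 4 without a filter, 1 with only the compared groups, 2 in voom, 2 without the 3 libraries, and 0 to 7 leaving out 1 library. With Id2 targeted against not, 37 were called, 13 without a filter, 71 in voom, 6 with the marker score, 6 without the 3 libraries, and 13 to 62 leaving out 1 library. With Tcf7 targeted against not, 46 were called, 20 without a filter, 22 with the marker score, and 5 to 66 leaving out 1 library. For the interaction 0 genes were called under every alternative run. The cause was not tested.

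Samples are not labelled as pairs by replicate number, and the main fit did not pair them. Of 18 same-numbered pairs, 6 had a correlation of deviations over 0.1 (-0.14 to 0.272). Yet 9 of 12 libraries correlated best with their own number, a hint of pairing from the data that was not tested. For Id2KO against Ctrl, the replicate block moved the SE of Bbc3 from 0.33 to 0.20 and that of Bcl2l11 from 0.26 to 0.18. The SE of Bax rose from 0.31 to 0.33. With the replicate block, 15 genes were called in DKO against Tcf1KO and 28 with Tcf7 targeted against not, with 22, 0, 19, 15, 0 and 39 in the other comparisons in the order above, the interaction before Id2, and no member. With 3 libraries a group, members' intervals reached a median of 0.57 log2 units on either side of a comparison with Ctrl, and at 10 to 41 reads counting error weighs on Bcl2a1b.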
